A study of Mus musculus with 2 samples.

Results

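The *Cntn5*-high CD4 T cells were 188 cells of 1 DKO-severe mouse, picked by their own transcripts from 6765 retained cells of that mouse. A member had at least 500 detected genes, at most 10% mitochondrial UMIs (unique molecular identifiers, each standing for 1 captured RNA molecule), a UMI of *Cd3d*, *Cd3e* or *Cd3g*, a UMI of *Cd4*, none of *Cd8a*, *Cd8b1*, *Foxp3* or *Il21*, and 3 or more UMIs of *Cntn5*. Cells with more than 2 UMIs over *Dscam*, *Penk* and *Hapln1*, and cells with both *Pdcd1* and *Cxcr5*, were left out. The comparison group was the 899 *Cntn5*-zero cells that met the same conditions in the same mouse without a *Cntn5* UMI. The levels of these genes were therefore set by the choice of cells and are given as a description.

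TCRβ+ cells had been sorted from spleen pooled with inguinal and cervical lymph nodes of 1 Foxp3Cre WT mouse and 1 DKO-severe Foxp3Cre Tet2/3 flox/flox mouse, both 14 weeks old, labelled with hashtag antibody 1 (WT) or 2 (DKO-severe), and sequenced together as 1 mRNA and 1 hashtag library. Both mice carried Foxp3Cre, so the WT mouse controls for the Cre, and *Tet2* and *Tet3* were floxed in the DKO-severe mouse only. The Cre is driven from the *Foxp3* locus and is regarded as leaky. A *Foxp3*-negative cell may thus lack *Tet2* and *Tet3* as a former Treg cell (ex-Treg cell) or through leaky Cre. The study states that conventional, activated CD4 T cells are also among the FOXP3-negative CD4 cells of these mice. By fate mapping, the study found nearly all FOXP3-negative PD-1+ CXCR5+ cells of DKO-severe mice to be ex-Treg cells. That class was set by protein, whereas cells with UMIs of both *Pdcd1* and *Cxcr5* were left out here. The genotype of a given *Foxp3*-negative cell was not known from the data used here. *Foxp3*-negative means without a *Foxp3* UMI, which does not show that the cell had no *Foxp3* RNA. DKO-severe is the study's class of such mice with the larger number of splenocytes and lymph node cells. With 1 mouse per genotype, cells are not replicates: no test was made, a gene is called by a 2-fold difference, and intervals cover counting error within these cells only.

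Contactin 5, encoded by *Cntn5*, is a membrane-anchored adhesion protein of the immunoglobulin superfamily, known from neurons. Netrin-G1 (*Ntng1*) and FLRT2 (*Flrt2*) are cell-surface guidance and adhesion proteins of the nervous system, and *Ralyl* encodes an RNA-binding protein related to RALY. CD4 T cells that help B cells in follicles, Tfh cells, are known by BCL6, PD-1, CXCR5, ICOS and IL-21, while TET enzymes oxidize 5-methylcytosine and take part in DNA demethylation.

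In the DKO-severe mouse 2516 cells formed the *Foxp3*-negative *Cd4* gate and 1165 remained after the *Il21*, *Dscam*, *Penk* and *Hapln1*, and *Pdcd1* and *Cxcr5* exclusions. The 188 members made up 16.1% of these 1165 cells (95% exact Clopper-Pearson interval 14.1 to 18.4%), 7.47% of the gate and 2.78% of the retained cells. Of 688 gated cells with 3 or more *Cntn5* UMIs, 432 had *Il21*, 151 had *Pdcd1* with *Cxcr5* and 115 had more than 2 UMIs over *Dscam*, *Penk* and *Hapln1*, classes that overlap. In the WT mouse 8 of 1673 cells met the same rule (0.478%, 0.207 to 0.940%). These WT cells held 3, 3, 3, 3, 4, 4, 5 and 10 *Cntn5* UMIs and no UMI of *Ralyl*, *Ntng1* or *Flrt2*. Members had a median of 7100 UMIs (1649 to 35316) and 2650.5 genes, against 6966 UMIs and 2504 genes in *Cntn5*-zero cells. The median member had 4035 UMIs of hashtag 2 and 35 of hashtag 1, as its DKO-severe label requires. *Cd28*, a T cell gene outside the rule, was found in 96.3% of members. No barcode was shared between the matrices of the mice, and 7 members (3.72%) and 33 *Cntn5*-zero cells (3.67%) were among the 6% of cells with the highest doublet scores.

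*Cntn5* itself was an abundant transcript in the members. The lowest member held 3 UMIs, the median member 36 and the highest 365, with quartiles at 14 and 76.25. In the median member *Cntn5* made up 0.618% of all UMIs and in the highest 7.85%, and its pooled level of 7757 CPM (UMIs of a gene scaled to 1e+06 UMIs) was the 4th highest of all genes. Few cells lay near the threshold: 9 had 3 UMIs, 18 had 2 and 60 had 1, while 154 had 10 or more. Single *Cntn5* UMIs were widespread. At least 1 was found in 6.43% of Cd8-gated DKO-severe cells (median 9310 UMIs), in 4.19% of B-lineage cells (median 5205) and in 5.14% of the WT gate after exclusions (median 5264), against 22.8% of the DKO-severe gate after exclusions (median 6993). At the threshold of 3 UMIs the share was 0.721% of the Cd8-gated cells and 0 of 215 B-lineage cells, where 3 counts would be 1.40%. After each cell was thinned to 3900 UMIs, 22.4% of 1167 DKO-severe and 0.329% of WT gated cells kept 3 or more. Thinning also removes *Il21* UMIs, so 261 cells then met the rule.

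**Figure D1:**
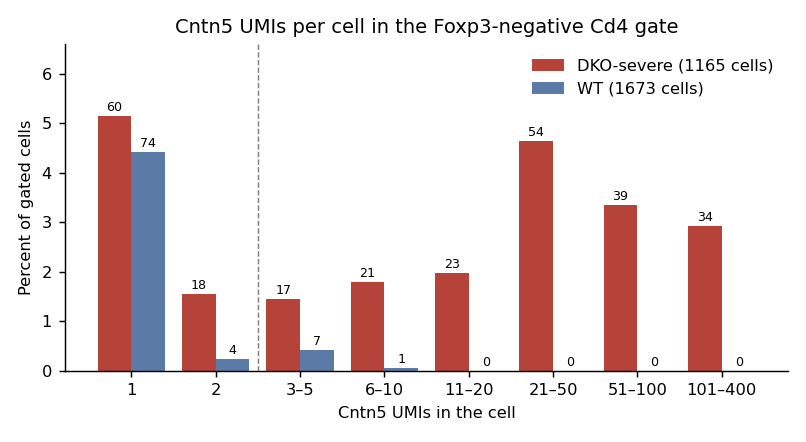
Cntn5 UMIs per cell (horizontal axis, classes) in the Foxp3-negative Cd4 gate after exclusions, as the percent of gated cells (vertical axis) with the number of cells above each bar; the dashed line marks the threshold of 3 UMIs. Cells without Cntn5 (899 DKO-severe, 1587 WT) are not drawn. The WT bars end at 10 UMIs, while 54 DKO-severe cells held 21 to 50 UMIs and 34 held more than 100.

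The other 3 markers of the group were detected in most members. The rule did not use them, but they were named with earlier results of these data known. Their levels are therefore a description too. *Ralyl* was found in 182 of 188 members (96.8%), with a median of 31.5 and a maximum of 227 UMIs, and in 259 of 899 *Cntn5*-zero cells (28.8%), with a median of 0 and a maximum of 171. Its pooled level was 4912 CPM against 578 CPM, which is 3.09 as a log2 ratio (95% exact conditional interval 3.03 to 3.14), and 13.0 CPM in WT *Cntn5*-zero cells. The single-cell ranges of the groups overlapped. *Ntng1* was found in 106 members (56.4%) and 76 *Cntn5*-zero cells (8.45%), at 465 against 55.5 CPM, or 3.07 (2.89 to 3.25) on the log2 scale. *Flrt2* was found in 132 members (70.2%) and in 132 *Cntn5*-zero cells (14.7%), at 552 against 58.9 CPM, or 3.23 (3.06 to 3.403) on the log2 scale. WT *Cntn5*-zero cells held 11 UMIs of *Ntng1* and 15 of *Flrt2*. The genes were found together: 78 members (41.5%) had all 3, 80 had 2, 26 had 1 and 4 had none, against 27 (3.00%), 93, 200 and 579 of the *Cntn5*-zero cells. On counts thinned to 3900 UMIs per cell, 261 *Cntn5*-high and 848 *Cntn5*-zero cells met the rule. These were not the same cells as the 188 members and 899 *Cntn5*-zero cells, because thinning also removes UMIs of the excluded genes. Among them the shares with *Ralyl* were 97.3% and 34.6%, with *Ntng1* 50.96% and 12.5%, and with *Flrt2* 64.0% and 15.1%. Across 174 members thinned to that depth, Spearman's rho with *Cntn5* was 0.38 for *Ralyl*, 0.29 for *Flrt2* and 0.12 for *Ntng1*, a description over cells of 1 library.

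*Ralyl* and *Ntng1* lie on chromosome 3, *Cntn5* on chromosome 9 and *Flrt2* on chromosome 12. In GRCm38 (mm10) *Cntn5* spans chr9:9660891-10904775 on the minus strand, 1243.88 kb, and *Ralyl* spans chr3:13471655-14182287 on the plus strand, 710.633 kb. *Ntng1* spans 363.972 kb and *Flrt2* 92.99 kb. Reads over *Gm32710* within *Cntn5* and over *Gm2464* within *Ralyl* could be shared between the overlapping genes. Because the markers were high together, their RefSeq promoters (GRCm38.p6, from 250 bases before to 50 after the annotated start) are shown 5′ to 3′ with each CpG, the site that TET enzymes act on when methylated, in capitals. Methylation was not measured in these cells.
*Cntn5* (chr9:10904726-10905025, minus strand): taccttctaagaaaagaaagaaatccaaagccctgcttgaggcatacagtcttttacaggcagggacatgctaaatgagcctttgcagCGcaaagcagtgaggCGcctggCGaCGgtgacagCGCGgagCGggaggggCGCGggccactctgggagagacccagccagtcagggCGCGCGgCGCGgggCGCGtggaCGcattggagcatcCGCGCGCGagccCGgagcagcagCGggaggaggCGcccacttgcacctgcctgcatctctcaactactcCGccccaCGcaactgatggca
*Ntng1* (chr3:110143423-110143722, minus strand): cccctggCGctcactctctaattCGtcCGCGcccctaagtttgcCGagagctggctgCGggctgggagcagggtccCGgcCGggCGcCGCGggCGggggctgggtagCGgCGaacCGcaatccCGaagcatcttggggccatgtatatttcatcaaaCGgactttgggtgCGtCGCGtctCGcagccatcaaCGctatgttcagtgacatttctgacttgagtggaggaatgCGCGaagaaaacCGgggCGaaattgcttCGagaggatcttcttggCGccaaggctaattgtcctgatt
*Flrt2* (chr12:95691976-95692275, plus strand): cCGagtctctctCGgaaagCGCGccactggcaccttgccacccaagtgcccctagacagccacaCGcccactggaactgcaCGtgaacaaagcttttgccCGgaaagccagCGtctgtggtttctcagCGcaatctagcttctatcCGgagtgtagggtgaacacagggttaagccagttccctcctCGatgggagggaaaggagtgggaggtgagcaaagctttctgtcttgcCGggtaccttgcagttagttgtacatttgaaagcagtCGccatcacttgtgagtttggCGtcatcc
The CG dinucleotide, the same on both strands, occurred 26 times in the *Cntn5* window, 28 times in that of *Ntng1* and 14 times in that of *Flrt2*. Of 32851 RefSeq promoters, 16.9%, 14.2% and 36.3% held at least as many, and the median was 7.

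Levels of these genes by the number of *Cntn5* UMIs showed a step at the threshold for some and a gradient for others. *Ralyl* stood at 578, 1100 and 1712 CPM in cells with 0, 1 and 2 *Cntn5* UMIs and at 3099, 4221, 4236 and 6048 CPM in cells with 3 to 5, 6 to 10, 11 to 50 and 51 or more. Its level was thus already higher in cells with 1 or 2 *Cntn5* UMIs than in cells with none. *Ntng1* stood at 55.5, 90.9 and 35.9 CPM below the threshold and between 374 and 552 CPM in the 4 classes above it. *Magi2*, which encodes a synaptic scaffold protein, stood at 131, 256 and 117 CPM below it and between 945 and 2177 CPM above. *Maf*, a transcription factor of Tfh cells, went from 217 CPM without *Cntn5* to 801 CPM in the highest class, and *Lef1*, a factor of naive T cells, from 376 to 147 CPM. Just inside the threshold, the 9 cells with 3 *Cntn5* UMIs had *Ralyl* at 3509 CPM, and just outside it the 18 cells with 2 had 1712 CPM. These classes rest on few cells. Of the 270 *Ralyl* UMIs of the 9 cells, 120 lay in 1 cell. In the 18 cells the 13 *Magi2* UMIs lay in 1 cell and the 4 *Ntng1* UMIs in 2.

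**Figure D2:**
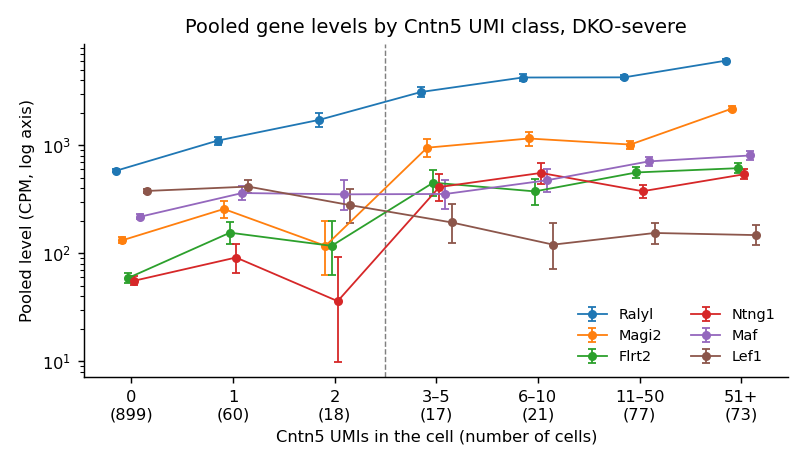
Pooled levels (vertical axis, CPM, log axis) of Ralyl, Magi2, Flrt2, Ntng1, Maf and Lef1 in DKO-severe cells by their Cntn5 UMIs (horizontal axis, number of cells in brackets), with exact 95% Poisson intervals. The dashed line marks the threshold. Ralyl was at 578 CPM without Cntn5 and at 6048 CPM with 51 or more UMIs, and Lef1 at 376 and 147 CPM.

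Over all genes, 6349 had 100 or more UMIs in both groups together and a mean of 20 CPM or more. Of these, 268 were at least 2-fold higher in members (4.22%) and 143 at least 2-fold lower (2.25%), with a median log2 ratio of 0.09. The excess of higher genes depended on the total: with immunoglobulin, haemoglobin, mitochondrial and ribosomal protein genes left out of it, which held 25.4% of UMIs in members and 30.8% in *Cntn5*-zero cells, 235 were higher and 249 lower (48.6% higher, against 65.2%), and the median was -0.02. With the rule and the sums both taken on thinned counts, 148 were higher and 145 lower. The ratios below are to be read against this shift, and the counts of list genes against the shares of 4.22% and 2.25%. The lists also hold genes under the limit of 100 UMIs. With a limit of 30 UMIs and no CPM minimum, 617 of 10573 genes were higher and 653 lower.

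Among the 6349 ranked genes, *Hs6st3*, a heparan sulfate sulfotransferase, had the highest log2 ratio of the genes outside the rule, at 4.50, from 93 UMIs in 27 members against 20 UMIs. *Cntnap2*, a contactin-associated adhesion protein, had 3.91 (3.62 to 4.21), at 268 against 17.8 CPM. *Magi2* had 3.53 (3.42 to 3.65), at 1519 against 131 CPM, and was found in 126 members (67.0%) and 140 *Cntn5*-zero cells (15.6%). Most members thus carried *Magi2*, while *Cntnap2* was found in 30 of them (16.0%), at 13.0 UMIs per cell that had it. The 3 highest cells of each group held 35.0% of the *Cntnap2* UMIs in members and 66.7% of those in *Cntn5*-zero cells. For *Hs6st3* these shares were 31.2% and 90%. The intervals do not cover such unevenness between cells. *Sntg2*, a syntrophin, was at 334 against 27.6 CPM and was found in 59.0% of members. *Cacna1d*, a calcium channel subunit, had 3.402 and *Fbn2*, a fibrillin of the extracellular matrix, 3.37. The protein-coding gene *4930452B06Rik* had 3.91 and was found in 37.2% of members, against 3.23% of *Cntn5*-zero cells. *Vat1l* (3.304), *Ccser1* (3.23), *Flrt2*, *2610204G07Rik* (3.14), the growth factor gene *Fgf2* (3.13), the G protein gene *Gna14* (3.11) and *Apoe* were also among the 15 highest. *Apoe*, the lipid carrier of macrophages, had 3.66, from 493 UMIs in 20 members of which 3 cells held 76.7%. Without the 76 members (40.4%) and 104 *Cntn5*-zero cells (11.6%) that held 3 or more UMIs of B cell, plasma cell, macrophage, granulocyte or erythroid markers, the log2 ratios of these 15 genes lay between 2.91 and 4.97. The macrophage list included *Cybb*, itself higher in members, of which 62 members held 3 or more UMIs. Without *Cybb* among the markers 26 members and 75 *Cntn5*-zero cells were removed, and the ratios lay between 2.99 and 5.03.

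The families of the marker genes differed in how far they were present. In the contactin family 3 of 14 genes had enough UMIs for a ratio (measured), and all 3 were higher: beside *Cntnap2*, *Cntn4* had 69 UMIs in 6 members, 79.7% of them in 3 cells, against 6 UMIs, and *Ptprg*, a contactin-binding phosphatase, had 19 UMIs against 1. Of the 14, 9 had no UMI in members. A gene with few UMIs was measured more readily where it was higher in members. They held 1450026 UMIs in all against 7067908 in *Cntn5*-zero cells, and sums under 3 were counted as 3. The direction of the sparse genes in these families was thus partly set by this limit. Of 7 netrin-G relatives and ligands 3 were measured and 1 was higher, the netrin receptor gene *Dcc*, with 29 UMIs in 9 members against 2. Of 9 FLRT relatives and receptors 3 were measured, all within 2-fold, and *Raly* and *Hnrnpc*, the relatives of *Ralyl*, had log2 ratios of -0.13 and -0.06. Among ephrin receptors and ephrins, guidance cues and their receptors, 6 of 21 were measured and 3 were higher, *Epha7* (5.68, in 28 members, 14.9%), *Efnb2* (3.87) and *Epha4*, with 5 UMIs in 1 member against 2. *Epha3* had 182 against 530 UMIs in the larger *Cntn5*-zero group, a log2 ratio of 0.74 (0.49 to 0.99). Of 18 synaptic adhesion and related genes 6 were measured: *Cadm1* was higher (2.13), and *Mal*, *Dpp10*, *Kcnh5* and *Myl1* were lower. General neuron and glia markers were mostly absent. Of 12 such genes 7 had no UMI in members, among them *Syt1* of synaptic vesicles, *Gad1* and *Gad2* of GABA synthesis and *Rbfox3*, and *Snap25* had 1. Of the 5 measured, *Map2*, a microtubule protein, was higher (2.02, in 28.7% of members) and *Mbp* had a log2 ratio of 0.08.

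Of 21 Tfh genes, 10 were at least 2-fold higher in members and 0 lower, with a median log2 ratio of 1.00, against 0.09 over all ranked genes. Without *Pdcd1* and *Cxcr5*, which the rule bounded, 8 of the other 19 were higher and the median was 0.95. With *Cntn5*-zero cells weighted to the members' clusters, as described further on, the median of the 21 was -0.00079 (-0.00079 to 0.1999 over 10 clustering seeds). Genes of this list outside the rule could themselves enter that clustering. *Cd200*, a surface ligand, was higher by 2.04 (1.86 to 2.22), *Tox2* by 1.68 (1.44 to 1.91), *Maf* by 1.67 (1.55 to 1.79) and the inhibitory receptor gene *Btla* by 1.34. *Maf* was found in 93.1% of members, 55.8% of *Cntn5*-zero cells and 13.3% of WT *Cntn5*-zero cells. *Angptl2* (2.21), *Ascl2* (2.19), *Sostdc1* (3.87) and *S1pr2* (1.25) were also higher, all but *Angptl2* at 20 or fewer UMIs in members. *Icos* lay just under 2-fold (1.00, 0.87 to 1.12), *Bcl6*, the Tfh lineage factor, had 0.52 (0.23 to 0.80), *Il4* -0.08 and *P2rx7* -0.81.

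Inhibitory receptor and exhaustion genes showed a like shift, with 6 of 9 higher, 1 lower and a median of 1.04. *Lag3* was higher by 1.74 (1.52 to 1.97), *Izumo1r*, which encodes folate receptor 4, by 1.67, *Nt5e* (CD73) by 1.58, *Tigit* by 1.22, *Entpd1* (CD39) by 1.04 and *Tox* by 1.03, while *Cd160* was lower (-3.15, 3 against 130 UMIs). *Izumo1r* stood at 781 against 245 CPM and was found in 89.9% and 52.4% of cells. Over 14 other settings the log2 ratio of *Lag3* ranged from 0.40 to 1.89, of *Izumo1r* from 0.46 to 1.74 and of *Nt5e* from 0.32 to 1.71. Among cytokine genes 3 of the 7 measured were higher, *Tnfsf8* (CD30 ligand, 1.67), *Tnfsf11* (RANK ligand, 1.16) and *Lif*, and 2 were lower, *Ifng* (-2.21) and *Il2*. The other 7 of the list of 14, *Il3*, *Il5*, *Il13*, *Il17a*, *Il17f*, *Il22* and *Csf2*, had no UMI in members.

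Treg genes were split, with 3 of 10 higher, 2 lower and a median of -0.00. *Nrp1* (1.33), *Ctla4* (1.18) and *Il10* (2.44, 10 against 9 UMIs) were higher, *Ikzf4* (-1.98, 4 against 77 UMIs) and *Itgae* (2 against 52 UMIs) were lower, and *Il2ra*, the IL-2 receptor alpha chain, had -0.48 (-0.95 to -0.05). *Ikzf2*, which encodes Helios, had 0.36 (0.25 to 0.48) and was found in 73.9% of members and 41.2% of *Cntn5*-zero cells. Over 14 other settings *Nrp1* ranged from 0.078 to 1.45 and *Ctla4* from 0.11 to 1.24. Of 10 naive-state genes 4 were lower and 0 higher, with a median of -0.42. The lower genes included *Satb1* (-1.54), *Lef1* (-1.32) and *Il7r* (-1.13). The direction turned when *Cntn5*-zero cells were weighted to the members' clusters, to a median of 0.22 (0.086 to 0.278 over 10 clustering seeds), with *Satb1* at 0.22 and *Il7r* at 0.298. Naive-state genes could themselves enter that clustering. *Tcf7* (0.09), which naive and Tfh cells share, and *Klf2* (0.26) were not among the lower genes. WT *Cntn5*-zero cells held more *Lef1* than either group, at 1140 CPM against 376 and 150 CPM.

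**Figure D3:**
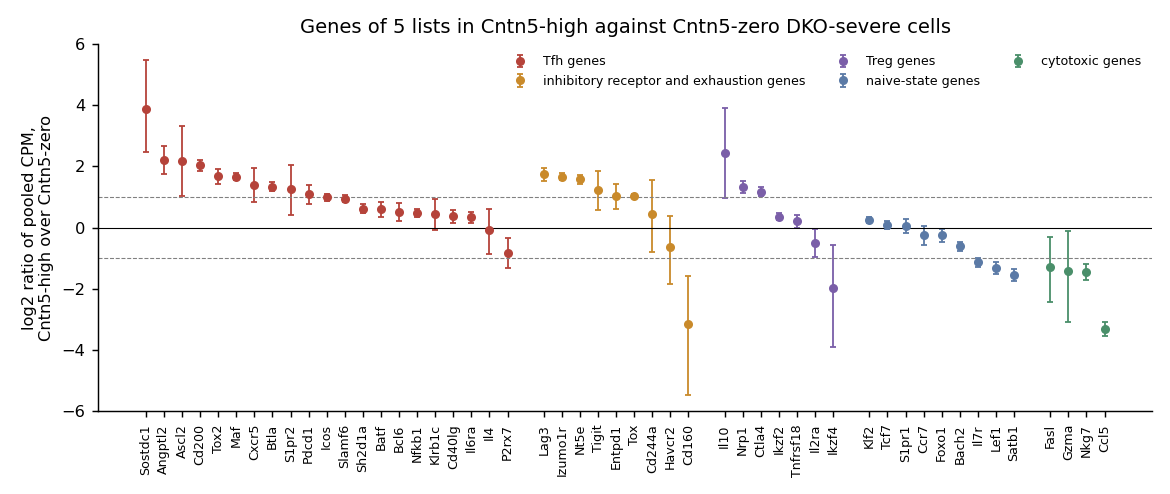
Log2 ratios of pooled CPM, Cntn5-high over Cntn5-zero DKO-severe cells (vertical axis), for genes of 5 lists (horizontal axis) with exact 95% conditional intervals; dashed lines mark 2-fold, and genes with fewer than 3 UMIs in a group and 1 naive-state gene are not drawn. Of the Tfh genes, Pdcd1 and Cxcr5 were used to choose cells. The points run from Sostdc1 at 3.87 down to Ccl5 at -3.29, with the median Tfh gene at 1.00 and the median naive-state gene at -0.42.

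Cytotoxic genes were the list with the lowest median, -1.59, with genes under 3 UMIs counted as 3: 7 of 8 measured were lower. *Ccl5*, a chemokine of effector T cells, stood at 108 against 1060 CPM (-3.29, -3.53 to -3.06). *Nkg7* had -1.44, *Gzmb* had 2 against 236 UMIs and *Prf1* 0 against 103, at least 7.04-fold lower at the floor of 3 UMIs over the group. Among 15 chemokine and migration receptors 7 were lower and 0 higher, including *Cxcr6* (-3.08), *Ccr2* (-1.53), *Gpr183* (-1.38), *Selplg* (-1.36) and *Ccr9* (-2.31). Of 19 lineage transcription factors 7 were lower, among them *Eomes* (1 against 113 UMIs), *Runx3* (-1.11), *Rora* (-1.10), *Ikzf3* (-1.06) and *Ahr* (-1.27), and 1 was higher, the hypoxia and metabolism regulator *Hif1a* (1.33, 1.21 to 1.45, found in 92.0% of members). *Dapl1* (-3.81), *Igfbp4* (-3.74), *Camk4* (-3.38), *St8sia6* (-3.37), *Ctla2a* (-3.81), *Ifi213* (-3.15) and *Trat1* (-3.04) were also among the 15 lowest, and stood between -3.98 and -2.99 without the cells that held B cell, plasma cell, macrophage, granulocyte or erythroid markers. *Camk4*, a calcium-dependent kinase, was found in 5.85% of members and 50.2% of *Cntn5*-zero cells.

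The remaining 6 of the 15 lowest were not T cell genes. *Ngp* (-6.15), *Camp* (-5.05), *Ltf*, *Retnlg* (-4.06), *Lcn2* (-3.65) and *Wfdc21* (-3.37) are granulocyte genes. Granulocyte markers summed to 486 CPM in members and 3302 CPM in *Cntn5*-zero cells, where 1 cell held 7258 UMIs of them, and 3 cells held 64.5% of all *S100a9*. Without the cells holding such markers, *Ngp* had -0.48, *Camp* 0.17 and *Lcn2* -0.18. Monocyte or macrophage markers went the other way, with 615 CPM in members and 379 CPM in *Cntn5*-zero cells, and 65 members held 3 or more of their UMIs. That sum was led by *Cybb*, an oxidase subunit of phagocytes, found in 124 members (66.0%) and 129 *Cntn5*-zero cells (14.3%), at 262 against 55.5 CPM (2.24, 2.03 to 2.45), while *Csf1r* and *Adgre1* had 19 and 8 UMIs in members. B cell markers summed to 210 and 126 CPM, erythroid markers to 25.5 and 357 CPM and CD8 T cell markers to 215 and 1366 CPM. *Cd8a* and *Cd8b1* were 0 by the rule, so this last list counted only its other genes, among them *Nkg7* and *Ccl5* of the cytotoxic list. *Ccl5* alone made up 108 of the 215 CPM and 1060 of the 1366 CPM. The list therefore does not show RNA of CD8 T cells here. The 19 members and 225 *Cntn5*-zero cells with 3 or more of its UMIs were not removed in any comparison. The part of RNA of other cells in the ratios of the T cell genes was not tested beyond the removals given.

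Several programmes differed little. All 10 cell cycle genes were within 2-fold (median 0.11), with *Mki67* in 9.57% of members and 10.7% of *Cntn5*-zero cells. Of 12 T cell receptor signal genes, *Nfatc1* was higher (1.15) and *Egr3* was lower (2 against 41 UMIs), with a median of 0.27. Of 8 DNA methylation genes 7 were within 2-fold. *Tet2* had 0.44 (0.12 to 0.75) and *Tet3* 0.17 (-0.09 to 0.41), whole-gene UMIs that do not show whether a floxed exon was lost. One stress gene of 7 measured, *Hspa1a*, was lower.

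After the rule genes and receptor segment genes were left out, a mean of 19.1% of the 20 nearest neighbours of a member were members and 56.3% had 3 or more *Cntn5* UMIs, against 3.49% and 8.003% for *Cntn5*-zero cells. The 432 cells with *Il21* and *Cntn5* had 15.2% and 67.4%. The other markers and the list genes outside the rule were not left out beforehand. Of 18 clusters, cluster 0 held 58 members (30.9%) and 9 *Cntn5*-zero cells (1.001%), and cluster 1 held 53 members (28.2%) and 88 *Cntn5*-zero cells (9.79%). For orientation, *Apoc4*, *Cntnap2*, *Cntn4*, *Epha7* and *Hs6st3* were among the leading genes of cluster 0, and *Kirrel3*, *Ntrk3* and *Fbn2* among those of cluster 1. Cluster 7 held a further 21 members (11.2%) and 17 *Cntn5*-zero cells. *Cntn5*-zero cells lay mainly in cluster 2 (28.03%, 1 member), cluster 3 (22.9%, 12 members) and cluster 5 (14.7%, 0 members). With 9 other random seeds on the same graph there were 17 to 19 clusters, and the cluster with the most members held 53 to 67 of them. Cluster 15 held 8 members and was led by the macrophage genes *C1qa*, *C1qb* and *Apoe*.

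**Figure D4:**
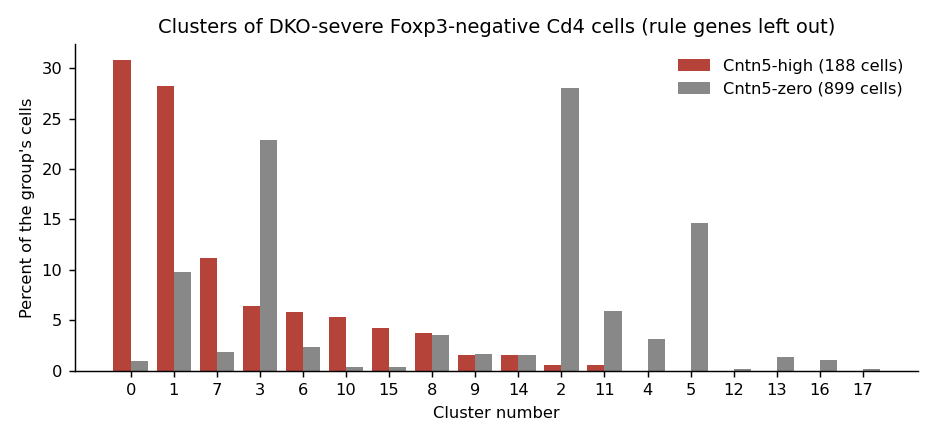
Percent of the 188 Cntn5-high and the 899 Cntn5-zero cells (vertical axis) in each of 18 clusters of DKO-severe Foxp3-negative Cd4 cells (horizontal axis, cluster number, ordered by members), clustered without the rule genes. Clusters 0 and 1 held 30.9 and 28.2% of members, and cluster 2 held 28.03% of Cntn5-zero cells.

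The members of clusters 0 and 1 differed among themselves. Members in cluster 0 had *Cntn5* at 12607 CPM and *Ralyl* at 6669 CPM, and those in cluster 1 at 6575 and 4722 CPM. *Hif1a* stood at 929 and 513 CPM, *Cd200* at 507 and 240.1 CPM and *Klf2* at 296 and 1038 CPM in clusters 0 and 1. *Apoe* stood at 1050.4 CPM in cluster 0, in 9 of 58 members, and was a single UMI in cluster 1. Within cluster 1, 5 of 1608 ranked genes were at least 2-fold higher in members than in *Cntn5*-zero cells and 9 lower. *Flrt2* (1.38, 1.09 to 1.67), *Ralyl* (1.16, 1.05 to 1.27) and *Cntnap2* (2.58) were higher and *Lef1* lower (-1.22) there too, while the log2 ratios of *Ntng1* (0.04), *Cd200* (-0.04) and *Icos* (0.05) had intervals that included 0, and that of *Maf* was 0.29. *Satb1*, lower over the gate, was higher in members of cluster 1 (0.78, 0.27 to 1.29), and *Lef1* in clusters 0 and 7 had -0.32 and -0.29 with intervals that included 0. When the *Cntn5*-zero cells were weighted to the clusters of the members, the median of Tfh genes was -0.00079 and that of naive-state genes 0.22, the marker ratios were 0.81 for *Ralyl*, -0.27 for *Ntng1* and 1.78 for *Flrt2*, and 110 genes were higher and 73 lower. These values moved with the seed of the clustering. Over 10 seeds 74 to 128 genes were higher and 56 to 78 lower, and *Ralyl* ranged from 0.597 to 1.08, *Flrt2* from 1.61 to 1.80 and *Ntng1* from -0.43 to 0.42. In this weighting, chosen after seeing the data, the 9 *Cntn5*-zero cells of cluster 0 carried 30.9% of the weight. It also matched cells by clusters that could draw on the markers and list genes whose ratios are given. How far this by itself shrank those ratios was not tested.

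The *Il21* condition removed cells whose levels were close to those of members for several genes. Groups were not ranked by likeness, and the *Cntn5* level of these cells was set by the same threshold of 3 UMIs. The 432 gated cells with *Cntn5* and *Il21* held *Cntn5* at 6864 CPM and *Ralyl* at 5576 CPM, with log2 ratios of members over them of -0.18 (-0.22 to -0.14) for *Ralyl*, 0.04 (-0.07 to 0.16) for *Flrt2*, -0.09 (-0.20 to 0.01) for *Maf* and -0.10 (-0.22 to 0.01) for *Icos*. *Lef1* was lower in members (-0.56) and *Satb1* higher (0.68). These cells had a median of 9342 UMIs against 7100, and the part of depth in which cells had an *Il21* UMI was not tested. Cells with *Il21* but no *Cntn5* (310 cells) had *Ralyl* at 3602 CPM, and members over them had 0.45 for *Ralyl*, 1.22 (1.08 to 1.36) for *Flrt2*, 1.501 (1.41 to 1.59) for *Magi2* and 3.97 for *Cntnap2*, but 0.18 for *Maf* and 0.16 for *Icos*. Of 187 cells with *Pdcd1* and *Cxcr5* and no *Il21*, 38 (20.3%) had 3 or more *Cntn5* UMIs, as had 115 of 623 (18.5%) with *Dscam*, *Penk* and *Hapln1*. *Ikzf2* was lower in members than in both groups (-1.55 and -1.60).

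The *Cntn5*-zero group itself held cells with the other markers. In 173 of its cells (19.2%) *Ralyl* had 3 or more UMIs. These had *Maf* at 483 CPM, *Cd200* at 214 CPM and *Lef1* at 293 CPM, levels between those of members and of the whole *Cntn5*-zero group, and *Flrt2* at 171 CPM. Against the 640 *Cntn5*-zero cells without *Ralyl*, members had log2 ratios of 6.34 for *Ntng1*, 4.47 for *Flrt2*, 2.34 for *Maf* and 3.04 for *Cd200*. The 6 members without a *Ralyl* UMI held 641 CPM of *Satb1* against 148 CPM in all members.

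T cell receptor segments, which the rule did not use, were read where a cell had a single leading V segment. Few UMIs covered the segments, and in only 15 of the 62 members with such a Trbv segment did it have 2 or more. *Trbv13-2* led in 23 (37.1%, 25.2 to 50.3%) and *Trbv12-2* in 21 (33.9%, 22.3 to 47.0%), followed by *Trbv19* in 6. Expressed as an effective number of segments (1 divided by the sum of squared shares), this was 3.72 (2.97 to 5.005). It was 8.16 in 250 *Cntn5*-zero cells, where *Trbv19* led in 47 and *Trbv12-2* in 43, and 13.1 in 373 WT *Cntn5*-zero cells. In 30 members with a leading Trav segment, *Trav9-2* led in 11 and *Trav8d-1* in 9, with an effective number of 4.21, against 26.5 in 126 *Cntn5*-zero and 35.5 in 354 WT cells. The last 90 bases of the 4 V exons, read from the GRCm38 genome at their annotated ends, are shown because these segments were shared by members. Capitals run from the codon of the last cysteine, where the joined region begins, to the end of the exon.
*Trbv13-2* (chr6:41121743-41121832, plus strand): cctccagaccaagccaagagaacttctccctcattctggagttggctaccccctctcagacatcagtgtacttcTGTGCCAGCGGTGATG
*Trbv12-2* (chr6:41119275-41119364, plus strand): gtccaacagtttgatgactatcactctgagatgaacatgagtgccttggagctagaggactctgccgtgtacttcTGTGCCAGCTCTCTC
*Trav9-2* (chr14:53591425-53591514, plus strand): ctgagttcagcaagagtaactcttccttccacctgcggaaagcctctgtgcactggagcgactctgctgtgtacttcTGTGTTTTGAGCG
*Trav8d-1* (chr14:52778906-52778995, plus strand): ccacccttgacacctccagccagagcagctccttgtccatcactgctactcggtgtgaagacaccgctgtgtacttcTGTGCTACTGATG
Aligned without gaps at the cysteine codon, the beta segments had 33 of 89 bases in common and the alpha segments 40 of 90. *Trbv12-2* and *Trbv13-2* are neighbours, 2.03 kb apart, and the Trav segments lie 811.861 kb apart. Both neighbours were detected in 9 members. *Trbv12-2* was found in 25% of members with *Trbv13-2* and in 13.8% of those without it. The shares were 10.4% and 5.64% in *Cntn5*-zero cells and 9.26% and 2.54% in WT *Cntn5*-zero cells. In *Cntn5*-zero cells without *Ralyl* they were 0% and 5.01%. Whether reads were assigned to the wrong neighbour was not tested.

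**Figure D5:**
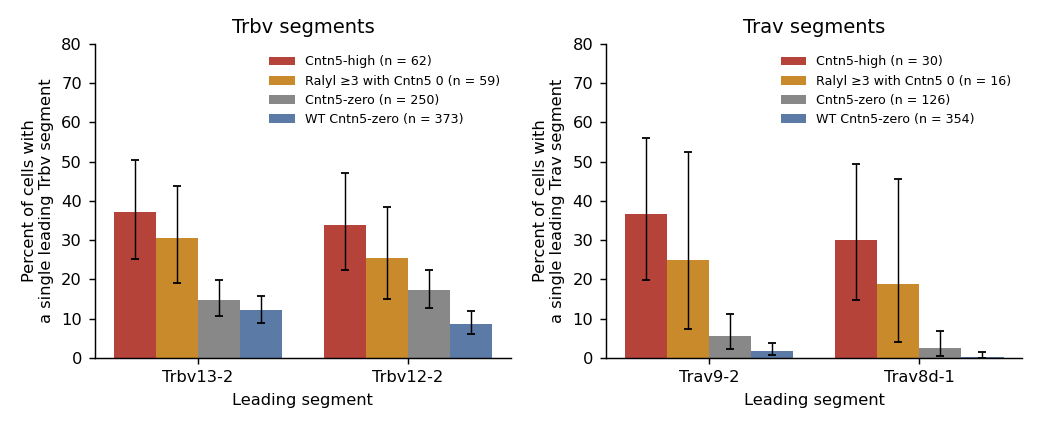
Percent of cells with a single leading segment (vertical axis) led by the named Trbv (left) or Trav (right) segments (horizontal axis) in Cntn5-high cells, Cntn5-zero cells with 3 or more Ralyl UMIs, all Cntn5-zero cells and WT Cntn5-zero cells, with exact 95% binomial intervals and the number of cells in the key. Trbv13-2 led in 37.1% of Cntn5-high and 14.8% of Cntn5-zero cells, and Trav9-2 in 36.7% and 5.56%.

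Read the other way, 34.8% of 66 gated cells led by *Trbv13-2* and 30.9% of 68 led by *Trbv12-2* were members, against 10.2% of 59 led by *Trbv19*, 6.98% of 43 led by *Trbv15* and 0 of 19 led by *Trbv2*. Over all members, whether or not a segment led, 57 (30.3%) had *Trbv13-2* or *Trbv12-2*, against 96 *Cntn5*-zero (10.7%) and 93 WT *Cntn5*-zero cells (5.86%), and 23 (12.2%) had *Trav9-2* or *Trav8d-1*, against 12 (1.33%) and 11 (0.693%). Of 9 members with a leading segment of each chain, 4 paired *Trbv13-2* with *Trav9-2*, 2 paired *Trbv12-2* with *Trav8d-1* and 1 each paired them the other way round. Among 74 such *Cd4*-gated cells with 3 or more *Cntn5* UMIs the counts were 18, 10, 8 for *Trbv12-2* with *Trav9-2* and 13 for *Trbv13-2* with *Trav8d-1*. The same segments led in both main clusters, in 17 of 19 members of cluster 0 and 14 of 18 of cluster 1 for Trbv. The cells with *Il21* and *Cntn5* had an effective number of 3.42 over 189 cells, led by *Trbv13-2* in 85 and *Trbv12-2* in 54. In *Cntn5*-zero cells with 3 or more *Ralyl* UMIs it was 5.11 over 59. The segments also led in cells with *Il21* and no *Cntn5*, where the number was 4.97 over 102, with *Trbv13-2* at 29.4%, *Trbv12-2* at 25.5%, *Trav9-2* at 26% and *Trav8d-1* at 24% of leads. In cells with *Pdcd1* and *Cxcr5* and no *Il21* it was 5.23 over 74. Reads from the end of the transcript cover few junctions, so clones were not identified.

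The members led by each segment can be set side by side, with no test. *Cntn5* stood at 8565 CPM in the 23 led by *Trbv13-2* and 8622 CPM in the 21 led by *Trbv12-2*, *Maf* at 812 and 783 CPM and *Icos* at 660 and 618 CPM. *Ralyl* stood at 5451 and 7661 CPM and *Magi2* at 1436 and 2068 CPM, higher in those led by *Trbv12-2*.

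The higher genes spanned more of the genome than ranked genes did in general. The 268 higher genes had a median span of 79.0 kb and 46.6% spanned 100 kb or more, against 29.6 kb and 15.8% of all 6349 ranked genes. Among the 60 genes at least 4-fold higher the values were 172.6 kb and 65%, and among the 143 lower genes 39.2 kb and 27.3%. UMIs from unspliced RNA were not told apart from those of spliced RNA here.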

How the data were processed

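TCRβ+ cells of 1 WT and 1 DKO-severe mouse were profiled as 1 mRNA and 1 hashtag library. The authors deposited counts: whole-number UMIs per gene and barcode made with Cell Ranger on mm10 (submitters' processing notes, which also name Seurat; versions are not given there), with 1 matrix per mouse after hashtag assignment. Barcodes passed with 500 or more genes and 10% or fewer mitochondrial UMIs (WT 7004 cells, median 5688 UMIs; DKO-severe 6765, median 8312). The members and gene lists were chosen with earlier results of these data known, and the named genes are the markers, the lists and the 15 highest and 15 lowest ratios among ranked genes, without genes of the rule, immunoglobulin, haemoglobin, receptor segment and sex-linked marker genes. Of these, 2 genes are not reported here, though the counts and medians include them.

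UMIs were summed over cells, scaled to CPM and compared as log2 ratios with exact conditional 95% intervals. Sums under 3 UMIs were counted as 3, and no ratio was given where that floor reached the other group's level. Shares have Clopper-Pearson intervals. UMIs were thinned to 3900 per cell for shares at equal depth, which left out 542 DKO-severe and 822 WT cells. Doublets were scored but not removed. Neighbours and Leiden clusters (resolution 1, seed 0) used 2000 variable genes, 30 components and 20 neighbours, with components and edge weights rounded so that the clustering repeats exactly, a step added after earlier cluster values had been seen (scanpy 1.11.5, leidenalg 0.10.2). Other tools were Python 3.11.15, numpy 2.4.6, scipy 1.17.1 and pandas 2.3.3. The scripts were tested on simulated data. Segment sequences are from RefSeq GRCm38 at GENCODE positions, and promoters matched RefSeq by symbol for 3 of 4 markers.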

Additional observations from a re-analysis of the deposited data

Results flagged for a closer look

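*Cntn5* was also found outside the gate the members came from. In the *Foxp3*-positive *Cd4* gate of the DKO-severe mouse, 34 of 371 cells (9.16%, 6.43 to 12.6%) had 3 or more *Cntn5* UMIs, against 0 of 66 in WT, where 3 counts would be 4.55%. The median depth of this gate was 12308 UMIs in DKO-severe and 5479.5 in WT cells. After thinning to 3900 UMIs, 8 of 118 DKO-severe cells (6.78%, 2.97 to 12.9%) had 3 or more. In WT it was 0 of 30, where 3 counts would be 10%. The 34 cells had a median of 22685 UMIs. They had *Cntn5* at 3611 CPM, *Ralyl* at 2040 CPM and *Ikzf2* at 2018 CPM, against 530 CPM of *Ikzf2* in members. In cells with Cd3 but no *Cd4*, *Cd8a* or *Cd8b1* UMI, 95 of 1297 DKO-severe cells (7.32%, 5.97 to 8.88%) had 3 or more, against 4 of 1468 WT cells (0.272%). Both stood out because the report's comparison leaves these cells out and the share before thinning was above that in WT. How far missed *Cd4* UMIs account for the latter was not tested. Nor was it tested how far missed *Foxp3* UMIs set the 34 *Foxp3*-positive cells apart from members, whose median was 7100 UMIs.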

How the results depend on the processing

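Values were recomputed under other settings, 3 of them and the clustering seeds chosen after seeing the data. With the 3 exclusions lifted there were 688 members (27.3% of the gate), 126 genes higher and 84 lower, and medians of 0.58 for Tfh and -0.49 for Treg genes and 2.00 for the 3 markers. With the rule and the sums both taken on thinned counts, the share was 13.5% and 148 genes were higher. The medians were then 0.85 (Tfh), 0.17 (Treg) and 2.46 (markers). The mean of each cell's CPM gave a Tfh median of 1.11, and removal of the highest doublet scores a Treg median of 0.28. With immunoglobulin, haemoglobin, mitochondrial and ribosomal protein genes left out, 249 genes were lower. A limit of 30 UMIs without a CPM minimum gave 617 higher and 653 lower, and a 4-fold rule 60 and 37. Of the 3 later settings, removing cells with B cell, plasma cell, macrophage, granulocyte or erythroid markers, which took out 40.4% of members and 11.6% of *Cntn5*-zero cells, gave medians of -0.78 (naive-state) and 0.32 (Treg). Without *Cybb* among those markers the medians were -0.598 and 0.12. Weighting *Cntn5*-zero cells to the members' clusters gave 110 higher and 73 lower genes and medians of -0.00079 (Tfh), 0.22 (naive-state) and 0.81 (markers), and turned *Ntng1* (-0.27), *Tox2* (-0.073), *Cd200* (-0.0597), *Satb1* (0.22) and *Il7r* (0.298). Over 10 clustering seeds the Tfh median ranged from -0.00079 to 0.1999 and the sign of *Ntng1* was not the same. The effective number of Trbv segments ranged from 3.36 to 3.92. Of 350 recomputed ratios of single genes, 249 moved by less than their counting interval, 96 moved by more and 5 changed sign. Some ratios that kept their sign became small in a setting. The lowest were 0.40 for *Lag3*, 0.46 for *Izumo1r*, 0.32 for *Nt5e*, 0.24 for *Hif1a*, 0.19 for *Tnfsf8*, 0.11 for *Ctla4* and 0.078 for *Nrp1*. The causes were not tested. No paired analysis was possible because each genotype was 1 mouse, and no replicate could be left out. Depth limits genes with few UMIs, of which a ratio rests on a few cells.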
